A study of Mus musculus with 3 samples.

Results

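The values of 9 genes of myelin and of the oligodendrocyte lineage were followed in RNA from isolated mouse brain vessels: Mbp, Mog, Mag, Mobp, Cnp, Cldn11, Ugt8a, Olig1 and Sox10. They are a list of names and not the output of a threshold, but were chosen with earlier results of these data known. Each was read from its transcript row with the largest total count. All 9 members were found among the 29917 genes of the tables. Brain vessels had been isolated from whole brains of 3-month-old mice, and polyadenylated RNA was sequenced in 3 libraries, with 1 library per group. The groups were Cx30-/-, in which Gjb6, the gene of the astrocyte gap junction protein connexin 30, is deleted in every cell, C57BL6 WT with both copies intact, and C57BL6-BALB/c WT, also intact and of mixed background. Each library pooled the vessels of 3 mice, and the methods of the study give only males for this experiment. For Cx30-/- the labels give a C57BL6 background and the methods a C57BL6/Balbc one, and which WT library matches it in background was not settled. With 1 library a group, no difference could be set against a spread between replicates. Every interval below is a 95% exact binomial (Clopper-Pearson) interval of a pair of counts and covers counting error only, not the variation between mice or vessel preparations.

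Oligodendrocytes wrap axons of the brain in myelin, a stack of membrane that is rich in galactolipids and cholesterol and is held together by a small set of abundant proteins. Sox10, Olig1 and their relatives are transcription factors that set up the lineage and switch on the myelin genes. Cnp and Mbp shape and compact the sheath, Mag and Mog lie on its inner and outer faces, Cldn11 seals it with tight junction strands, and Ugt8a makes its main lipid, galactosylceramide. The messenger RNAs of Mbp and Mobp are carried out into the processes of the cell and translated there. Oligodendrocytes are not part of the vessel wall, although their precursors touch vessels, and their own connexins couple them to astrocytes.

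The deposited counts summed to between 50375426 and 60725557 per library. Counts were divided by a size factor per library, the median of ratios to the mean library, to give normalized counts. Gjb6 had 2899 counts in C57BL6 WT, 2246 in C57BL6-BALB/c WT and 96 in Cx30-/-, as the genotypes in the labels give. Of the 8 endothelial markers, every one was present in every library, and their summed level per kilobase of transcript was 37000 normalized counts in C57BL6 WT, 20170 in C57BL6-BALB/c WT and 41690 in Cx30-/-. C57BL6-BALB/c WT thus had the lowest sum of the endothelial list. The choroid plexus list stood apart in another library, with a summed level of 227100 in C57BL6 WT against 87500 in C57BL6-BALB/c WT and 118100 in Cx30-/-.

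The members Mobp, Mag and Mog are shown here by the DNA before their start, because Mobp gave other ratios below than Mag and Mog, and because one member, Sox10, encodes a factor of the SOX family, which binds cores such as ACAAAG. RefSeq windows of 250 bases on GRCm38.p6 were matched for 6 of the 9 members (Mog, Mag, Mobp, Cnp, Cldn11 and Ugt8a) and not for Mbp, Olig1 and Sox10. The stretches below end before the outermost start of the gene in GENCODE M21. They run 5′ to 3′ on the strand of the gene, and capitals mark ACAAAG or its reverse complement CTTTGT. They cover chr9:120149492-120149706 on the plus strand for Mobp, chr7:30914874-30915113 on the minus strand for Mag and chr17:37023399-37023648 on the minus strand for Mog.
Mobp: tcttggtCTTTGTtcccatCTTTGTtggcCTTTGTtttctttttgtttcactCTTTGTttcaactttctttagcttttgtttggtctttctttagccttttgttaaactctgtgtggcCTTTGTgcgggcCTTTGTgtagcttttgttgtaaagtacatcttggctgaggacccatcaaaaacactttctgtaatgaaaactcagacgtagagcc
Mag: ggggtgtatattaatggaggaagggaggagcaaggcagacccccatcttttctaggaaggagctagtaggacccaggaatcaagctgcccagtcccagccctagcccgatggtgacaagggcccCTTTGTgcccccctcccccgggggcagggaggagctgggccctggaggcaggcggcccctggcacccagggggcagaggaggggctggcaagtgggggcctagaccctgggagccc
Mog: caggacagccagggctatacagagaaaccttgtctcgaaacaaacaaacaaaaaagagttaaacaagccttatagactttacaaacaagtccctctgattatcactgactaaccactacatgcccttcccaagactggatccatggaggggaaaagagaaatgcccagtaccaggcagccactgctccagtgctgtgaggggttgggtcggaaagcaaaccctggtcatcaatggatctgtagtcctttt
The window of Mobp held 6 matches, those of Mag and Cnp 1 each, and those of Mog, Cldn11 and Ugt8a 0. Over all 32851 windows, 16.5% held at least 1 match, and 1 window (0.00304%), that of Mobp, held 6 or more, a number taken from Mobp itself. The second SOX core searched, ACAATG, was in 0 of the 6 windows and in 10.7% of all windows. The E-box letters CANNTG, which basic helix-loop-helix factors such as Olig1 can bind, were in the windows of Mag, Cnp and Ugt8a and in 66.2% of all windows, and the TATA box letters TATAAA in none of the 6 and in 12.4% of all. Both strands were searched, and the motifs could overlap. A match is a description of the letters and not a site in use.

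The 9 members spanned a wide range of levels. Per kilobase of transcript, with the row lengths of the files, Mbp stood far above the rest at 14000 normalized counts in C57BL6 WT, 11300 in C57BL6-BALB/c WT and 11860 in Cx30-/-. In C57BL6 WT the order of the others was Mag (1416), Cldn11 (1046), Mobp (903.5), Cnp (694), Mog (671.5), Olig1 (428.9), Sox10 (215.6) and Ugt8a (146.3). The interval of the ratio between neighbours in that order held 0 on the log2 scale only for Cnp and Mog. C57BL6-BALB/c WT had the same order, and there Cnp and Mog, and Sox10 and Ugt8a, were not separated beyond counting error. Cnp was read from Cnp-204, a row not annotated as protein-coding. Its protein-coding row Cnp-201 had 839.9 in C57BL6 WT and 644.8 in C57BL6-BALB/c WT, so that the closeness of Cnp to Mog depends on the row. In Cx30-/- the order differed in one place: Mobp (724.7), Mag (714.5) and Cldn11 (696.9) followed Mbp and were not separated from their neighbours among these 3. Mag, second of all members in both WT libraries, lay at the level of Mobp there.

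**Figure D1:**
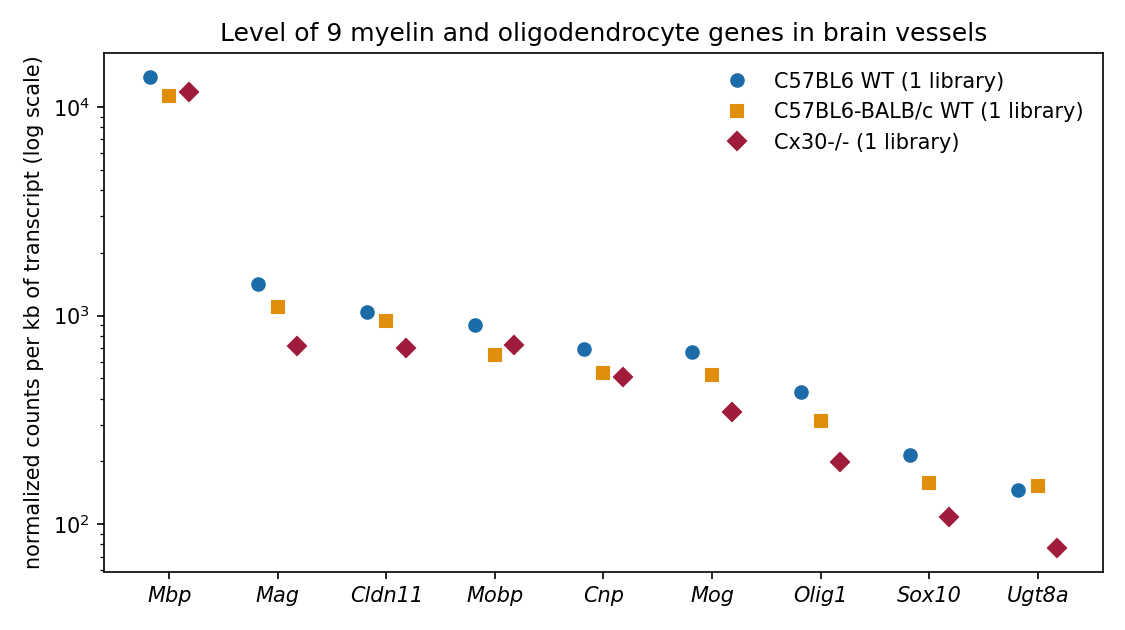
Level of the 9 members in each library, as normalized counts per kilobase of transcript on a log scale, 1 point for each library with no replicates. Mbp lies near or above 11300 in every library, and in Cx30-/- the points of Mag, Cldn11 and Mobp lie together between 696.9 and 724.7.

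The comparisons asked how vessel RNA differed without connexin 30. Against C57BL6 WT, all 9 members had a lower level in Cx30-/-, with log2 ratios from -1.10 for Olig1 to -0.24 for Mbp, a median of -0.93, and an interval below 0 for each of the 9. Against C57BL6-BALB/c WT the median was -0.55, with 6 intervals below 0, those of Mbp and Mobp above 0 and that of Cnp across 0. The median over the 14688 genes measured in both comparisons was -0.0023 and 0.0121, respectively. Both comparisons use the same Cx30-/- library, so that they are not independent of each other. The 2 WT libraries differed as well: C57BL6-BALB/c WT lay below C57BL6 WT with a median log2 ratio of -0.38 over the members, against -0.0054 over all genes, and with 8 of 9 intervals below 0. The share of all genes with such intervals was not counted, so these counts of intervals do not set the members apart from other genes. In RNA of a mixed tissue, fewer oligodendrocytes among the vessels and less RNA per oligodendrocyte cannot be told apart.

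**Figure D2:**
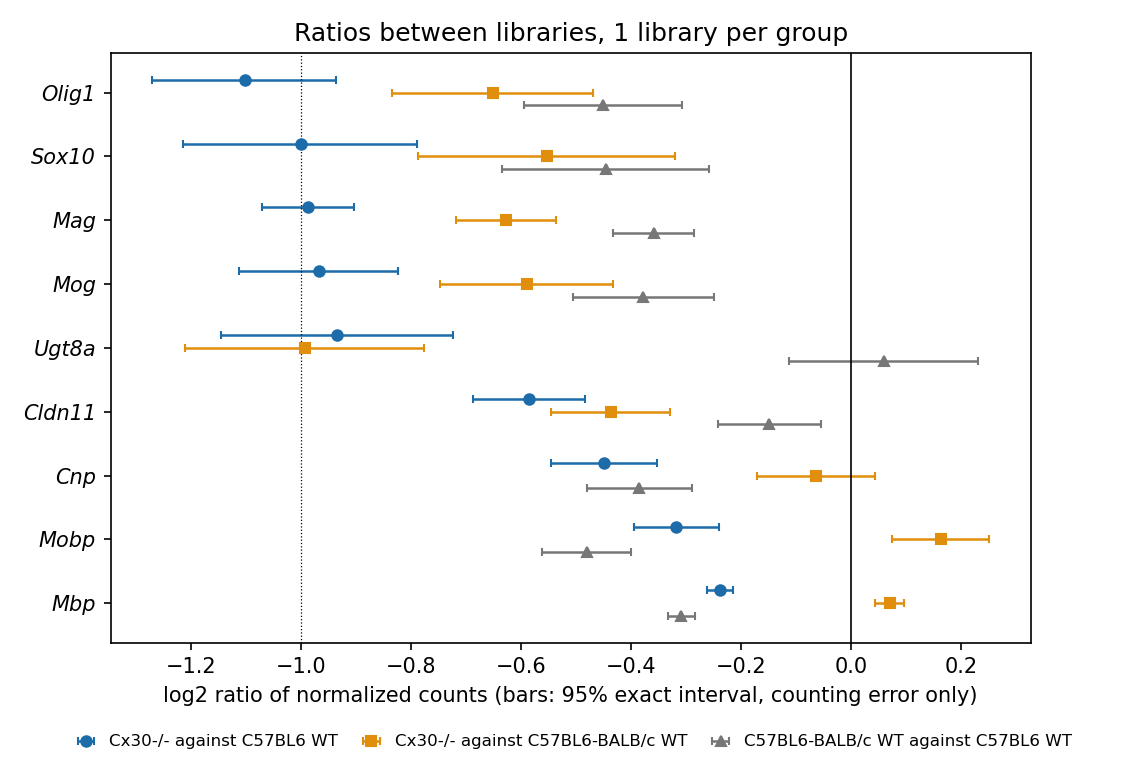
Log2 ratio of normalized counts for each member in the 3 comparisons, with bars for the 95% exact interval, which covers counting error only. The dotted line marks a 2-fold lower level, and Mog, Mag, Olig1, Sox10 and Ugt8a lie furthest to the left in both comparisons with WT, while Mbp and Mobp lie right of 0 against C57BL6-BALB/c WT.

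Few members passed a 2-fold threshold with at least 50 normalized counts in the higher library. Against C57BL6 WT, 1 of the 9 members, Olig1, was at least 2-fold lower (1.26% of all genes were) and 0 at least 2-fold higher (1.42% of all genes). Against C57BL6-BALB/c WT, 0 members were at least 2-fold lower and 0 higher, where 4.73% and 3.96% of all genes were. Between the WT libraries, 0 members passed in either direction, beside 1.41% of all genes higher and 2.02% lower in C57BL6-BALB/c WT. Against both WT libraries at once, 0 members were at least 2-fold lower (0.681% of all genes) or higher (0.742%). At 1.5-fold, 4 of 9 members, Mog, Mag, Ugt8a and Olig1, were lower against both, beside 4.28% of all genes. Lower at any size against both were 7 of 9, all but Mbp and Mobp, beside 36.6% of all genes. The members share cells and were counted in the same libraries, so that they are not independent of each other.

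A test across all genes was possible only with both WT libraries taken as 1 group, so that its error is the difference between those libraries. By edgeR's quasi-likelihood test with Benjamini-Hochberg adjustment, 0 of 9 members passed an adjusted p of 0.05, beside 9 of 17576 genes (0.0512%). At an unadjusted p under 0.05 there were 5 members by edgeR (Mog, Mag, Ugt8a, Olig1 and Sox10), beside 8.69% of all genes, and 4 by DESeq2, beside 3.77%. The lowest edgeR adjusted p was 0.321, for Ugt8a, and the highest 0.991, for Mbp. The lowest DESeq2 adjusted p was 0.576. No member is therefore called changed by this test, and the ratios below are differences between single libraries.

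Of the lineage factors, Olig1 (ENSMUSG00000046160), a basic helix-loop-helix factor of the oligodendrocyte lineage on chromosome 16 (GRCm38, 91269772 to 91271933, plus strand), was read with 1060 counts in C57BL6 WT, 627 in C57BL6-BALB/c WT and 411 in Cx30-/-, that is, 925.6, 677.2 and 431.2 normalized counts. The Cx30-/- library was the lowest and C57BL6 WT the highest. The log2 ratio of Cx30-/- was -1.10 against C57BL6 WT (95% interval from -1.27 to -0.94) and -0.65 against C57BL6-BALB/c WT (-0.83 to -0.47), and the edgeR adjusted p was 0.374. Its row overlaps the exons of an antisense gene, Gm15966, by 157 bases, and the libraries kept no strand. Gm15966 itself had 0 counts in each of the 3 libraries. Bases of the Olig1 row without a read numbered 76 in C57BL6 WT, 80 in C57BL6-BALB/c WT and 49 in Cx30-/-. These are fewer than the overlapping bases, so the 0 of Gm15966 cannot show whether antisense reads entered the Olig1 count. Sox10 (ENSMUSG00000033006), an HMG-box factor that switches on many myelin genes, lies on chromosome 15 (79154908 to 79165240, minus strand). It had 627 counts in C57BL6 WT, 372 in C57BL6-BALB/c WT and 261 in Cx30-/-, which gave 547.5, 401.8 and 273.8 normalized counts. The order of the libraries was that of Olig1, and 20.2% of the row had no read in Cx30-/- against 7.8% and 9.9% in the WT libraries. The log2 ratio was -1.0 against C57BL6 WT (-1.21 to -0.79), just short of the 2-fold threshold, and -0.55 against C57BL6-BALB/c WT (-0.79 to -0.32), with an edgeR adjusted p of 0.467.

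Mag and Mog, a pair of single-pass membrane proteins of the immunoglobulin superfamily, gave nearly the same ratios. Mag (ENSMUSG00000036634; chromosome 7, 30899176 to 30914873, minus strand), which lies at the inner face of the sheath next to the axon, was read with 3935 counts in C57BL6 WT, 2480 in C57BL6-BALB/c WT and 1653 in Cx30-/-, or 3436.1, 2678.7 and 1734.1 normalized counts. Its log2 ratio was -0.99 against C57BL6 WT (-1.07 to -0.90) and -0.63 against C57BL6-BALB/c WT (-0.72 to -0.54), with an edgeR adjusted p of 0.447. Mog (ENSMUSG00000076439; chromosome 17, 37010743 to 37023398, minus strand), which lies on the outermost lamella, had 1308, 814 and 557 counts in the same order, or 1142.2, 879.2 and 584.3 normalized counts. Both genes were lowest in Cx30-/- and intermediate in C57BL6-BALB/c WT. The log2 ratio of Mog was -0.97 against C57BL6 WT (-1.11 to -0.82) and -0.59 against C57BL6-BALB/c WT (-0.75 to -0.43), with an edgeR adjusted p of 0.433.

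Ugt8a (ENSMUSG00000032854; chromosome 3, 125865271 to 125938619, minus strand) encodes the enzyme that joins galactose to ceramide, and it was the member whose 2 comparisons with WT gave the closest values. It had 615 counts in C57BL6 WT, 518 in C57BL6-BALB/c WT and 268 in Cx30-/-, or 537, 559.5 and 281.1 normalized counts. The WT libraries lay within counting error of each other, with a log2 ratio of 0.06 (-0.11 to 0.23), and Cx30-/- lay below both. The log2 ratio of Cx30-/- was -0.93 against C57BL6 WT (-1.15 to -0.72) and -0.99 against C57BL6-BALB/c WT (-1.21 to -0.78), and the edgeR adjusted p of 0.321 was the lowest among the members. Cldn11 (ENSMUSG00000037625; chromosome 3, 31149920 to 31164324, plus strand), the claudin of the radial tight junction strands of myelin, had 2209, 1611 and 1225 counts in C57BL6 WT, C57BL6-BALB/c WT and Cx30-/-, or 1928.9, 1740.1 and 1285.1 normalized counts. It was again lowest in Cx30-/-, by a smaller amount, with log2 ratios of -0.59 (-0.69 to -0.48) and -0.44 (-0.55 to -0.33) against the C57BL6 and C57BL6-BALB/c WT libraries and an edgeR adjusted p of 0.683.

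The other 3 members did not set Cx30-/- apart from both WT libraries. Mbp (ENSMUSG00000041607; chromosome 18, 82475146 to 82585637, plus strand), the basic protein that draws the cytoplasmic faces of myelin together, had 34034 counts in C57BL6 WT, 22207 in C57BL6-BALB/c WT and 24004 in Cx30-/-, or 29718.9, 23986.1 and 25181.4 normalized counts. Cx30-/- thus lay between the WT libraries, with log2 ratios of -0.24 (-0.26 to -0.22) and 0.07 (0.04 to 0.10) and an edgeR adjusted p of 0.991. Mobp (ENSMUSG00000032517; chromosome 9, 120149707 to 120181484, plus strand), a small basic protein of the same compartment, had 3400, 1970 and 2270 counts, or 2968.9, 2127.8 and 2381.3 normalized counts, and also lay between them, at -0.32 (-0.40 to -0.24) and 0.16 (0.07 to 0.25), with an edgeR adjusted p of 0.980. Cnp (ENSMUSG00000006782; chromosome 11, 100574904 to 100591729, plus strand), an enzyme of the non-compact channels of myelin, had 2308, 1429 and 1407 counts, or 2015.4, 1543.5 and 1476 normalized counts. Its level in Cx30-/- was below C57BL6 WT, at -0.45 (-0.55 to -0.35), and within counting error of C57BL6-BALB/c WT, at -0.06 (-0.17 to 0.04), with an edgeR adjusted p of 0.907.

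The rows of Mbp and of Mobp gave like ratios, and those of Cnp differed in sign in one comparison. The 9 members had 29 transcript rows, 16 of Mbp, 4 of Cnp, 3 of Mobp and 1 of each other member, and reads in exons that transcripts have in common entered every one of those rows. Of these, 28 reached 50 normalized counts in some library. The 15 such rows of Mbp had log2 ratios from -0.24 to -0.17 against C57BL6 WT and from 0.02 to 0.17 against C57BL6-BALB/c WT, and those of Mobp from -0.32 to -0.20 and from 0.13 to 0.16. The rows of Cnp ran from -0.45 to -0.16 against C57BL6 WT and from -0.07 to 0.28 against C57BL6-BALB/c WT, where the highest value came from Cnp-203, the shortest row, with 179, 93 and 116 counts in C57BL6 WT, C57BL6-BALB/c WT and Cx30-/-. The row Mbp-208 shares 0 of its 1685 exon bases with the row Mbp-211. It had only 13, 24 and 8 counts in C57BL6 WT, C57BL6-BALB/c WT and Cx30-/-.

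Because size factors cancel when genes are compared within a library, the members were also set against Mbp. This comparison was chosen after the values were seen, and its result is in part the ratios above in another form. For every 100 Mbp counts there were 11.6 counts of Mag in C57BL6 WT, 11.2 in C57BL6-BALB/c WT and 6.89 in Cx30-/-. The WT libraries, which differed in the level of Mag itself, lay together on this scale, with a log2 difference of -0.05 (-0.13 to 0.03). Mog had 3.84 counts per 100 Mbp counts in C57BL6 WT, 3.67 in C57BL6-BALB/c WT and 2.32 in Cx30-/-. Olig1 had 3.12, 2.82 and 1.71, and Sox10 had 1.84, 1.68 and 1.09, in the same order of libraries. For each of these 4 genes the interval between the WT libraries held 0, and Cx30-/- lay below both.

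The log2 differences of Cx30-/- from C57BL6 WT and from C57BL6-BALB/c WT in counts per Mbp count were -0.73 (-0.88 to -0.58) and -0.66 (-0.82 to -0.50) for Mog and -0.75 (-0.83 to -0.66) and -0.70 (-0.79 to -0.60) for Mag. The values were -0.86 (-1.03 to -0.70) and -0.72 (-0.91 to -0.54) for Olig1, and -0.76 (-0.98 to -0.55) and -0.62 (-0.86 to -0.39) for Sox10. The transcription factors and the surface proteins were thus lower relative to Mbp by like amounts in both comparisons. Ugt8a, with 1.81, 2.33 and 1.12 counts per 100 Mbp counts in C57BL6 WT, C57BL6-BALB/c WT and Cx30-/-, differed between the WT libraries too, by 0.37 (0.20 to 0.54). Cldn11 had 6.49, 7.25 and 5.10, and Cnp had 6.78, 6.44 and 5.86, a smaller step. Mobp had 9.99, 8.87 and 9.46, with Cx30-/- between the WT libraries, so that 7 of the 8 members, all but Mobp, had fewer counts per Mbp count in Cx30-/- than in either WT library. This count follows from the choice of Mbp as the reference. Its ratio was the highest of all members against C57BL6 WT, and only that of Mobp was higher against C57BL6-BALB/c WT.

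**Figure D3:**
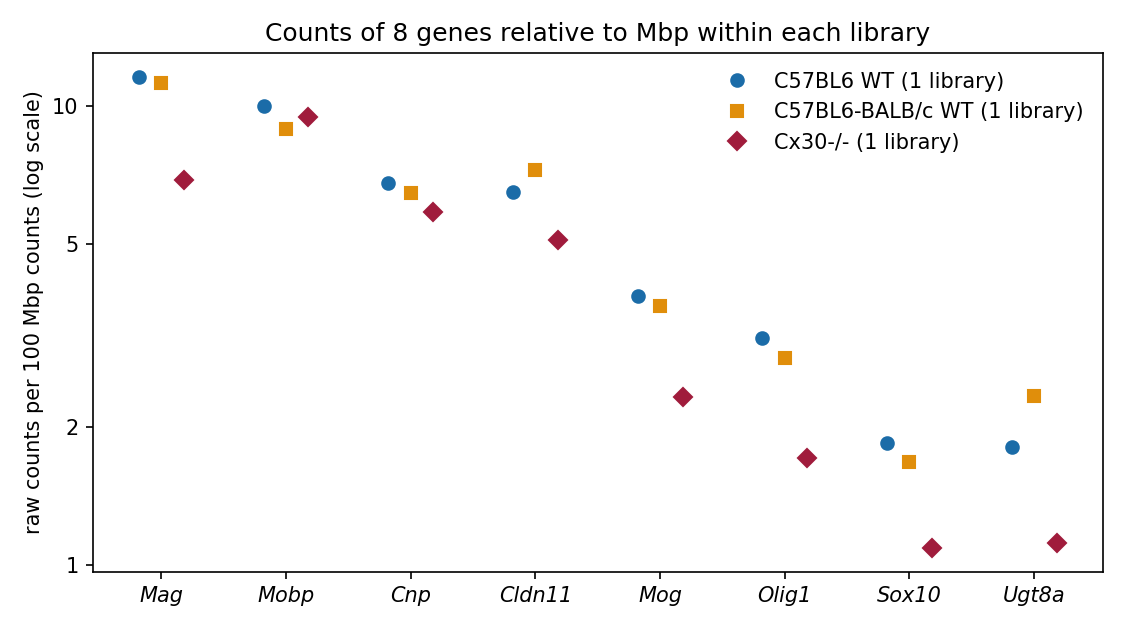
Raw counts of 8 members for every 100 counts of Mbp in the same library, on a log scale, 1 point for each library. The Cx30-/- point lies below both WT points for every gene but Mobp, for Mag at 6.89 against 11.6 and 11.2.

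Other genes were read from lists of myelin structure, galactolipid and fatty acid synthesis, lineage transcription factors, precursors and mature oligodendrocytes. Not all of them are particular to oligodendrocytes, such as Cd9 and Bmp4, and the part of other cells in their values was not tested. In these 5 lists, without the members, 63 genes passed the count minimum in both comparisons. Of these 35 were lower in Cx30-/- against both WT libraries at any size and 12 higher, beside 36.6% and 37.1% of all genes. At 1.5-fold 16 were lower and 1 higher, beside 4.28% and 3.23% of all genes. At 2-fold 4 were lower and 0 higher, beside 0.681% and 0.742%. By the adjusted test edgeR called 0 of the 65 genes of these lists that it tested, beside 0.0512% of all genes. At an unadjusted p under 0.05 edgeR gave 16 (15 of them lower in Cx30-/-), beside 8.69% of all genes. DESeq2 called 0 as well, with 12 at an unadjusted p under 0.05, beside 3.77% of all genes. The median log2 ratio of the 63 genes was -0.33 against C57BL6 WT and -0.09 against C57BL6-BALB/c WT. Both were nearer to 0 than those of the members.

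Transcription factors of the lineage held 2 of the 4 genes that passed 2-fold. Olig2, the partner of Olig1 and needed to form the lineage, stood at 413.9 normalized counts in C57BL6 WT, 347.8 in C57BL6-BALB/c WT and 157.4 in Cx30-/-, a log2 ratio of -1.40 (-1.67 to -1.13) and -1.14 (-1.43 to -0.86), with an edgeR adjusted p of 0.226. Myrf, which switches on myelin genes when precursors mature, stood at 715.2, 743.1 and 342, a log2 ratio of -1.06 (-1.25 to -0.88) and -1.12 (-1.31 to -0.93), with an edgeR adjusted p of 0.236. Between the WT libraries Myrf lay within counting error, and Olig2 was lower in C57BL6-BALB/c WT, at -0.25 (-0.46 to -0.04). Both genes were lower in Cx30-/- than in either WT library. Over the 8 factors of this list that were measured, 5 were lower and 1, Tcf7l2, was higher in both comparisons, and the median log2 ratio was -0.56 and -0.64.

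The other pair came from the lists of structure and of lipids. Gjb1, which encodes the oligodendrocyte connexin 32, stood at 156.3 normalized counts in C57BL6 WT, 139.3 in C57BL6-BALB/c WT and 69.2 in Cx30-/-, with log2 ratios of -1.17 (-1.60 to -0.76) and -1.01 (-1.46 to -0.57) and an edgeR adjusted p of 0.440. Fa2h, which hydroxylates the fatty acids of the galactolipids that Ugt8a makes, had 532.7, 480.7 and 237.1, with log2 ratios of -1.17 (-1.39 to -0.95) and -1.02 (-1.26 to -0.79) and an edgeR adjusted p of 0.255. Scaling by total counts left both short of the 2-fold threshold against C57BL6-BALB/c WT, at -0.95 for Gjb1 and -0.96 for Fa2h. Just outside the threshold was Gjc3, the connexin 29 gene, named after its values were seen, with 1226.9, 1296.1 and 613.7 normalized counts and log2 ratios of -1.0 and -1.08. Relative to Mbp these genes also lay lower in Cx30-/-: for every 100 Mbp counts Olig2 had 1.39, 1.45 and 0.625 counts in C57BL6 WT, C57BL6-BALB/c WT and Cx30-/-, and Fa2h had 1.79, 2.0 and 0.942.

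In the structure list as a whole, 13 of 17 genes were lower and 2 higher in both comparisons, beside 36.6% and 37.1% of all genes. The median log2 ratio of the list was -0.34 and -0.32. Here and in the lists that follow, extremes are by the ratio nearer to 0 of the 2 comparisons with WT, so that other genes can lie further out in a single comparison. The extremes of this list were Gjb1 at the low end and Cd9, a tetraspanin found on many cells, at the high end with 0.13 and 0.52.

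The remaining lists varied in direction, where 36.6% of all genes were lower and 37.1% higher in both comparisons. Of the 9 genes of galactolipid and fatty acid synthesis besides Ugt8a, 3 were lower and 3 higher in both comparisons, with a median of -0.14 and 0.13, and Fa2h and Sptlc2, a subunit of the enzyme that starts sphingolipid synthesis, at 0.20 and 0.45, were the extremes. Of 13 cholesterol synthesis genes, 7 were lower and 1 higher in both, with a median of -0.31 and -0.01. Of 13 precursor genes, 9 were lower and 1 higher, with a median of -0.44 and -0.63. The extremes there were Neu4, a sialidase, at -0.89 and -1.15, and Bmp4, a growth factor also made by other cells, at 0.83 and 0.66. Of the 16 other genes of mature oligodendrocytes, 5 were lower and 5 higher in both, with a median of -0.29 and 0.13, and the extremes were Gpr37, a receptor of myelinating cells, at -0.87 and -0.83, and Apod, a lipid carrier, at 0.41 and 0.82.

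Markers of other cells differed between the libraries as well, and their part in the values of the members was not tested. Of 9 neuronal markers, 8 were lower in Cx30-/- than in both WT libraries, beside 36.6% of all genes. The median log2 ratio of the 9 markers was -0.49 and -0.76, and none of them passed 2-fold in both. Their summed level per kilobase was 14000 normalized counts in C57BL6 WT, 17430 in C57BL6-BALB/c WT and 10530 in Cx30-/-, and no marker was at 0 in any library. Between the WT libraries the neuronal list lay higher in C57BL6-BALB/c WT, with a median of 0.15, where the members lay lower, at -0.38. All 8 endothelial markers were higher in Cx30-/- than in both WT libraries, beside 37.1% of all genes, with a median of 0.16 and 0.87. The fibroblast list was higher for all 5 genes, with a median of 0.26 and 0.49. The astrocyte list had a median of -0.25 and -0.11, the microglia list of -0.17 and 0.10, the mural cell list of 0.23 and 0.43 and the choroid plexus list of -0.75 and 0.47.

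Peripheral myelin, made by Schwann cells on nerves that follow vessels, uses some of the same genes. Of its 8 markers, 5 passed the minimum in both comparisons, with a median of 0.11 and -0.30. Of those below it, Ncmap had 22.7, 31.3 and 29.4 normalized counts in C57BL6 WT, C57BL6-BALB/c WT and Cx30-/-, and Pmp2 was at 0 counts in C57BL6 WT, both named after their values were seen.

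**Figure D4:**
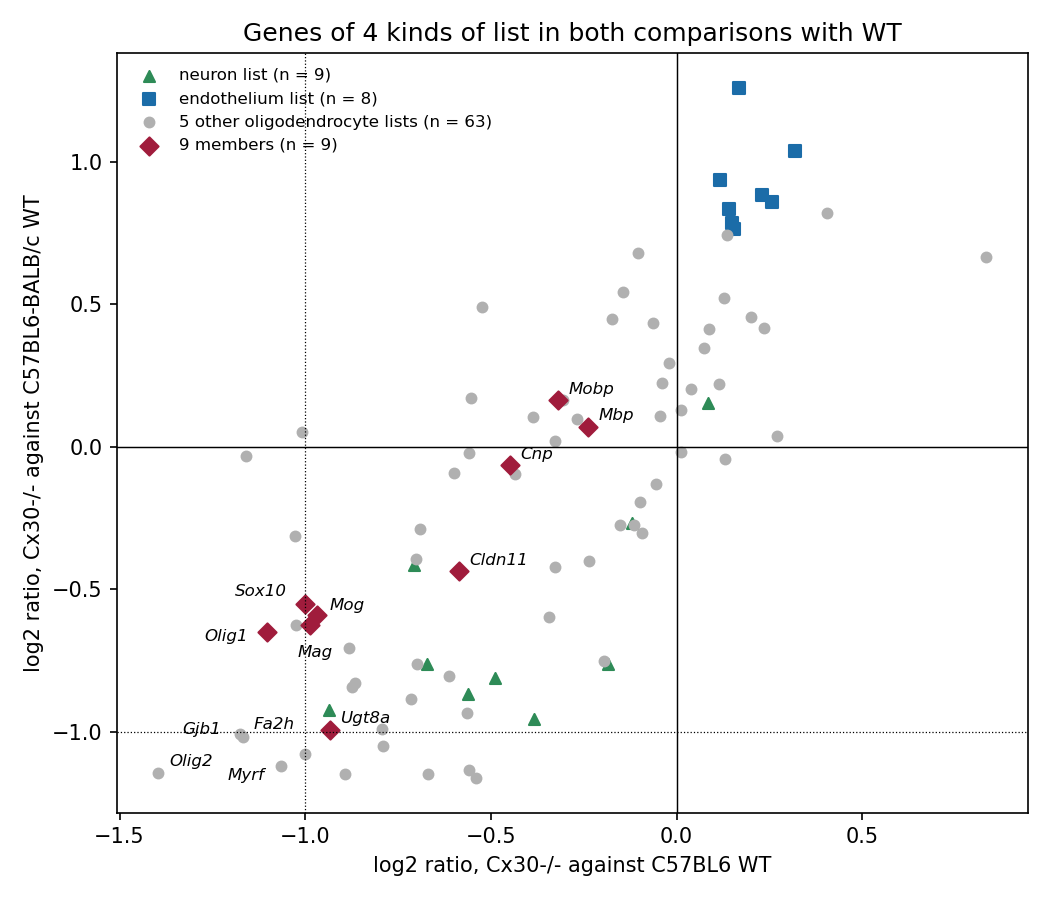
Log2 ratio of Cx30-/- against C57BL6 WT (horizontal) and against C57BL6-BALB/c WT (vertical) for the 9 members, 63 genes of 5 other oligodendrocyte lists, 9 neuronal and 8 endothelial markers, with dotted lines at 2-fold lower. Olig2, Myrf, Gjb1 and Fa2h lie past both dotted lines, 7 of 9 members lie at the lower left with 8 of 9 neuronal markers, and all 8 endothelial markers lie in the upper right.

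The genes outside the lists whose pair of ratios was nearest to the medians of the members (-0.93 and -0.55) were sought among 7764 genes with at least 500 normalized counts in every library. The 5 nearest by Euclidean distance on the log2 scale were Kcnk1, Gpm6a, Efnb3, Lgi2 and Syp. Kcnk1, a potassium channel, lay at a distance of 0.098 and measured 1675.7 normalized counts in C57BL6 WT, 1378.2 in C57BL6-BALB/c WT and 938.9 in Cx30-/-. Gpm6a, a membrane glycoprotein of neurons, lay at 0.123 with 10395.6, 8632.3 and 5925. Efnb3, an ephrin, lay at 0.135 with 2596.9, 2229.4 and 1489.7, and Lgi2 at 0.148 with 969.3, 827.4 and 508.8. All of these were lowest in Cx30-/-, as was Syp, a protein of synaptic vesicles, at 0.172 with 12633.6, 11464.3 and 7102.1. Likeness was taken over 3 libraries only.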

How the data were processed

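Poly(A) RNA of isolated mouse brain vessels was sequenced as 50-base single reads without strand in 3 libraries. Per the labels and methods, the authors used Eoulsan 1.1.6 and Bowtie 0.12.7, kept uniquely aligned reads and deposited for each of 82813 Ensembl transcripts a raw count of alignments overlapping its exons. They also deposited each count divided by a library total, as a fraction (between 20654144 and 24830975) and, as other columns, the transcript's length, position and bases without a read. The positions in the files run past the end of GRCm38 chromosome 1 and were not used. Identifiers were matched to GENCODE M21 (GRCm38), which named 69375 rows (83.8%), and coordinates are from there. File lengths differ from M21 for some rows, such as Mbp-202 (2123 against 531 bases), so levels per kilobase depend on them.

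Each gene took its row with the largest total count. Size factors were 1.1452 (C57BL6 WT), 0.9258 (C57BL6-BALB/c WT) and 0.9532 (Cx30-/-). Selection asked for 50 normalized counts in the higher library and a 2-fold ratio, after the study's own rule. Intervals used scipy 1.17.1, and tests edgeR 4.0.16 (filterByExpr, TMM) and DESeq2 1.42.0 in R 4.3.3. The edgeR and selection steps were tested on simulated data, with changes larger than those of the members and a spread smaller than the fitted one. That test therefore does not show whether changes of the members' size could be found. Members and lists were chosen with earlier results of these data known. Named genes are the members, list genes past 2-fold against both WT libraries, the extremes of described lists, Gjb6, and the 5 genes nearest in pattern. Genes named for another reason are marked as named after their values were seen. Alternatives were other scalings, row rules, count minimums, fold thresholds, a pseudocount of 1 and DESeq2. Of the lists, Omg, Hmgcs1, Idi1, Zfp488, Lhfpl3 and Carns1 were not analysed here. Some items are not reported here.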

Additional observations from a re-analysis of the deposited data

Results flagged for a closer look

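The files also give, for each transcript, the number of its bases that no read touched, a column outside the count comparisons above. Mobp-201 is the shortest row of Mobp by deposited length, though not in M21, where it has 1191 exon bases that no other Mobp row holds. Of this row 536 bases (35.8%) were without a read in Cx30-/-, against 0% in C57BL6 WT and 1.5% in C57BL6-BALB/c WT. In Sox10-201, 512 bases (20.2%) were without a read in Cx30-/-, against 7.8% and 9.9%. These were the rows among those of the 9 members where the uncovered share was over 10 percentage points higher in Cx30-/- than in either WT library. Sox10 had 261 counts in Cx30-/- and fewer than in either WT library, and Mobp-201 had 1229 counts in Cx30-/-, 1699 in C57BL6 WT and 1069 in C57BL6-BALB/c WT, so that the count of Mobp-201 was not the lowest in the library with the most uncovered bases. With 1 library per group the difference was not tested.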

How the results depend on the processing

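No paired analysis was possible because each group has 1 library. Leaving out a WT library leaves 1 library against 1, a ratio with no test, which is the value of each comparison given above. Of 189 values of single members under alternatives, 181 stayed within their interval and 3 small ones changed sign: the ratio of Ugt8a between the WT libraries was -0.0021 with total counts and -0.0176 with the totals of the deposited fractions, and that of Cnp against C57BL6-BALB/c WT was 0.0133 with the latter. For Mog, Mag, Ugt8a, Olig1 and Sox10 all 70 values against WT stayed between -1.11 and -0.48. The number of members at least 2-fold lower against C57BL6 WT (1) was 2 with TMM factors, with total counts and with summed rows, since Sox10 lies at the threshold, 6 at 1.5-fold and 0 at 4-fold. At 1.5-fold, 4 were lower against C57BL6-BALB/c WT and 4 against both. Genes at least 2-fold higher and lower against both WT libraries (109 and 100) numbered 1039 and 915 with no count minimum, 51 and 52 with a minimum of 200, 475 and 629 at 1.5-fold, and 6 and 1 at 4-fold. The edgeR calls over all genes (9) were 135 with no filter, 14 with summed rows and 22 with the longest row, and none of these fits called a member. Fa2h left the 2-fold genes with total counts and with the totals of the deposited fractions. Gjb1 left them under both of these, with TMM factors, with summed rows, with a pseudocount of 1 and with a minimum of 200, and Gjc3 entered them with TMM factors, total counts and summed rows. With the minimum of 200 the median of the transcription factor list against C57BL6-BALB/c WT was 0.11. The ratio of Mbp against C57BL6-BALB/c WT (0.07) was 0.13 with total counts, 0.15 with the totals of the deposited fractions and 0.02 with the longest row, and the median of the precursor list there (-0.63) was -0.29 with summed rows. Other scalings moved the median of all genes by at most 0.09.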
